A study of Mus musculus with 7 samples.

Results

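The genes described here encode the proteins of the ribosome. Members were chosen by gene symbol: names of the Rpl and Rps families, Rplp0, Rplp1, Rplp2 and Rpsa for the cytosolic ribosome, and names of the Mrpl and Mrps families for the mitochondrial ribosome, leaving out the kinases of ribosomal protein S6. The rule took 160 of 23366 genes, 84 cytosolic (51 of the large and 33 of the small subunit) and 76 mitochondrial (47 large, 29 small). The rule itself uses no measured value. RNA was sequenced from cultured spinal motor neurons of C57BL/6 mouse embryos (E13.5), purified over a density gradient and transduced with lentivirus. Cells of the 3 OE libraries received a virus that overexpresses miR-218, those of the 2 KD libraries a virus that knocks miR-218 down, and those of the 2 control libraries an empty virus. All groups were grown in medium with horse serum and with CNTF and GDNF at 1 ng/ml, and fluorodeoxyuridine at 200 µM, which limits glial division, was added after 5 days. Although the submitters' design mentions duplicates, 3 OE libraries are titled and all were used. Whether each library is a culture of its own is not stated, so a p-value here reflects only how these libraries vary, and that variation may be technical.

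A ribosome has a small subunit, which decodes the mRNA, and a large subunit, which joins amino acids. The cytosolic ribosome makes nearly all proteins of the cell, and its proteins are encoded in the nucleus by mRNAs that mostly begin with a run of pyrimidines (C or T), through which their translation follows mTOR signalling. The mitochondrial ribosome translates the few mRNAs of the mitochondrial genome, and its own proteins are also encoded in the nucleus and imported.

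Gene counts summed to 2879382 to 3360686 in OE, 3081800 and 3329184 in KD, and 1591812 and 2099714 in control, so control was the shallowest group. Counts of Mir218-1, a miR-218 precursor gene, were 1126, 670 and 938 in OE, 137 and 179 in KD, and 107 and 81 in control (log2 2.47 for OE against control, edgeR adjusted p = 3.41e-12; log2 -0.13 for KD against control, edgeR adjusted p = 0.727), which checks the OE labels only. Defining markers of the labelled cell type were low: Mnx1 and Lhx4 were at 0 in all 7 libraries, and Chat, the enzyme of acetylcholine synthesis, lay between 0.607 and 3.83 CPM in OE, at 5.29 and 7.61 CPM in KD, and at 2.44 and 1.28 CPM in control (CPM stands for counts after scaling for library size). Of 13 motor neuron markers 6 had enough counts to be tested. A count of 0 may not mean absent RNA here, since genes of 4 core proteins of the cytosolic ribosome were also listed at 0 (below). In such bulk RNA, fewer cells of a type and less RNA per cell cannot be told apart.

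Most cytosolic members were abundant and most mitochondrial members were not. The tested cytosolic members had a median of 1113.7 counts per library, from 14.7 for Rpl28 to 5931.1 for Rps27a, against 132.0 for the mitochondrial members, from 9.6 for Mrpl54 to 867.7 for Mrpl20. The median standard error of a log2 fold change in OE against control was accordingly 0.094 for cytosolic and 0.213 for mitochondrial members, so smaller changes could pass the test in the cytosolic set. Of the members, 77 of 84 cytosolic and 74 of 76 mitochondrial genes passed the filter on low counts. The untested ones were Rpl10l, Rpl3l and Rpl39l, tissue-restricted paralogs with 1, 2 and 18 counts over all libraries, Mrpl2 and Mrps11 with 52 and 25 counts, and Rpl26, Rpl30, Rpl34 and Rps27, which were listed at 0 in all 7 libraries.

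The last 4 genes encode core proteins of the cytosolic ribosome, so their zeros were set against the uniqueness of their sequence. The authors counted uniquely mapped reads of 50 bases. Windows of 50 bases were taken along the longest annotated protein-coding transcript of each member, which can be longer than its main mRNA. The share of windows with no other exact copy in the mm9 genome had a median of 49.5% over 82 cytosolic members (0.3% to 99.4%). Over 76 mitochondrial members the median was 98.6% (14.1% to 99.9%). The share was below 50% for 41 cytosolic and 4 mitochondrial members. Among these are Rps27a (27.4%), Rps2 (28.2%), Mrps18b (40.6%), Rpsa (46.4%) and Rpl37a (48.8%), whose calls are described below. Rps27 had unique windows for 0.3% of its transcript, but Rpl26, Rpl30 and Rpl34 had 50.0%, 55.2% and 54.6%, close to the cytosolic median. A member with fewer unique windows than those 3 still had counts: Rps4x, an X-linked gene of the small subunit, had 15.3% and a mean of 2683.7 counts. Counts of cytosolic members therefore come from part of each transcript, and a level is comparable between libraries but not between genes.

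**Figure D1:**
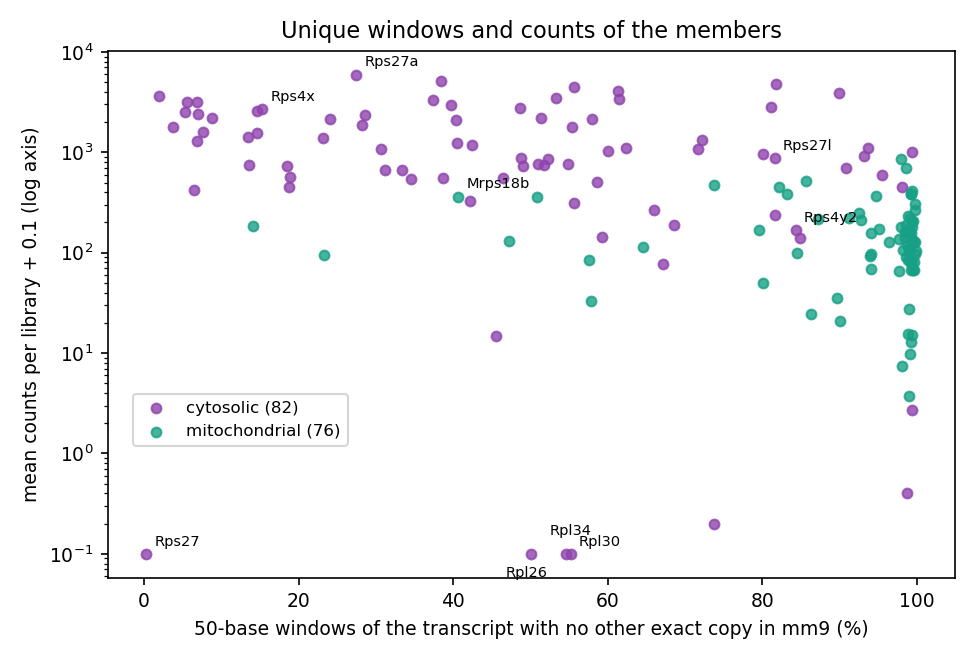
Share of 50-base transcript windows with no other exact genome copy (horizontal axis, percent) against mean counts per library plus 0.1 (vertical axis, log scale), 1 point a member located in the annotation (82 cytosolic, 76 mitochondrial). Mitochondrial members crowd at the right, with a median of 98.6%, cytosolic members spread over the whole range, and the 4 members listed at 0 lie along the bottom, 3 of them near 50%.

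As a whole, the cytosolic set was highest in OE, by a small margin. It took 4.35%, 4.78% and 4.55% of all counts in the OE libraries, 4.46% and 4.30% in the KD libraries, and 3.94% and 4.26% in the control libraries. The lowest OE library thus stood above both controls but below KD 1. The mitochondrial set took 0.472%, 0.499% and 0.477% of counts in OE, 0.468% and 0.472% in KD, and 0.439% and 0.465% in control, with OE 1 level with KD 2. Cytosolic counts per mitochondrial count were 9.23, 9.57 and 9.52 in OE, 9.53 and 9.10 in KD, and 8.98 and 9.14 in control, so OE and KD overlapped while all OE libraries lay above control.

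The library-to-library spread was close to the difference between groups. For each gene the log2 CPM was set against its mean over the 7 libraries, and the median of these deviations over cytosolic members was 0.02, 0.12 and 0.08 in OE, 0.01 and -0.07 in KD, and -0.11 and 0.02 in control. Control 2 and OE 1 were level. Control 1 was the lowest of the 7 libraries for 32 of the 77 tested cytosolic members, and OE 2 the highest for 36. Over mitochondrial members the deviations were 0.06, 0.09 and 0.04 in OE, -0.02 and -0.03 in KD, and -0.06 and 0.03 in control, so the 3 OE libraries lay above all others by a gap smaller than the difference between the controls. A score over chosen members was given no test.

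**Figure D2:**
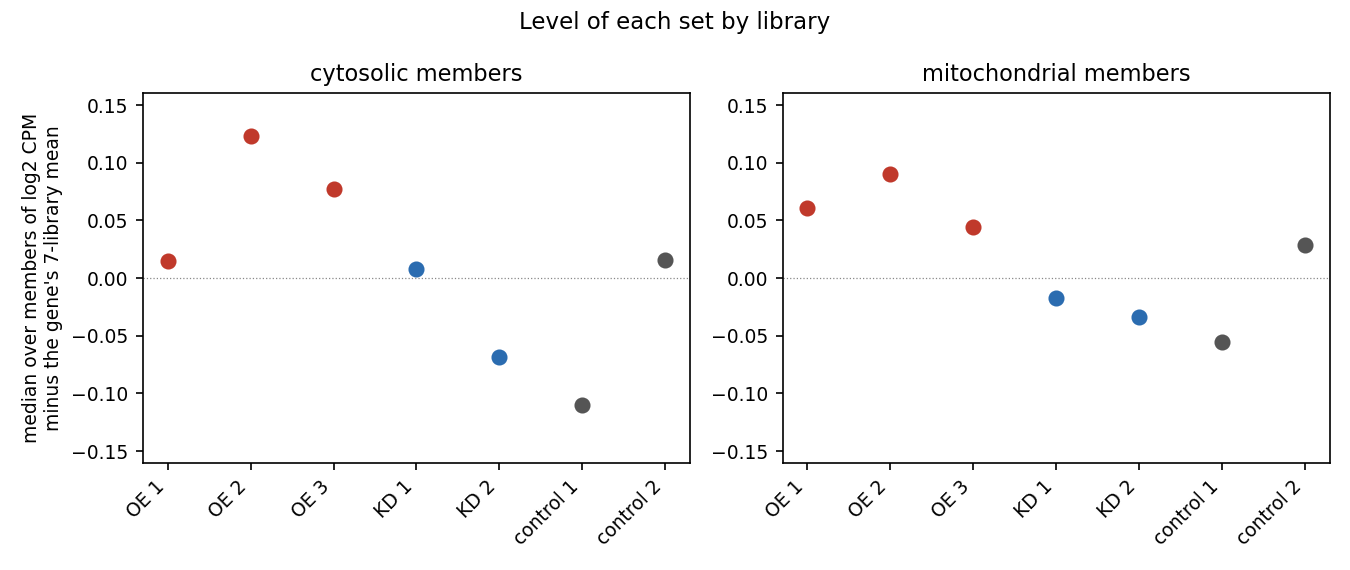
Median over the tested members of log2 CPM minus the gene's mean over 7 libraries, for each library, in OE (red), KD (blue) and control (grey). Cytosolic members (left panel) run between -0.11 in control 1 and 0.12 in OE 2, and mitochondrial members (right panel) between -0.06 and 0.09.

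OE against control asked how raised miR-218 moved these genes. Cytosolic members had a median log2 fold change of 0.14, and 64 of 77 (83.1%) were positive, against a median of 0.00 and 50.1% positive over all 12134 tested genes. Of the cytosolic members 6 rose and 0 fell (edgeR quasi-likelihood test, adjusted p under 0.05 at any fold), and 1 of them passed the study's fold threshold of 1.5. Over all tested genes 4.19% rose and 2.60% fell at any fold, and 3.65% rose and 1.26% fell over 1.5-fold, so 6 of 77 (7.79%, both directions) is close to the 6.80% of all genes, and 1 of 77 over 1.5-fold stands against 4.91%. At an unadjusted p under 0.05 there were 23. All OE libraries lay above both controls for 32 cytosolic members and below both for 2, against 18.1% and 17.2% of all tested genes. Mitochondrial members had a median of 0.07, with 45 of 74 positive, and 0 passed the test by edgeR in either direction, 9 at an unadjusted p under 0.05, and 0 in the authors' deposited table from DESeq2. OE lay wholly above control for 18 mitochondrial members and wholly below for 7.

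Rps27l, a close paralog of the small-subunit protein Rps27 and a known p53 target, rose most. It had 313, 330 and 355 CPM in OE, 314 and 373 CPM in KD, and 214 and 151 CPM in control. Every OE and KD library was above both controls, and the OE and KD libraries overlapped. Rps27l was 1.81-fold higher in OE than in control (log2 0.85, SE 0.12, edgeR adjusted p = 1e-05) and 1.86-fold higher in KD than in control (log2 0.90, SE 0.13, edgeR adjusted p = 4e-06), with no difference past the test between OE and KD (log2 -0.05, SE 0.11, edgeR adjusted p = 0.877). Both calls held in every alternative tried. Rps27l lies on chromosome 9 (mm9, 66793893 to 66797323, plus strand), its coding sequence is 76.1% identical to that of Rps27 over 255 aligned bases, and 81.6% of its 50-base windows were unique, so its counts can be told from those of Rps27.

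The other cytosolic members past the test in OE belong to the large subunit. Rpl39, a small protein of the wall of the peptide exit tunnel, had 1684, 1751 and 1706 CPM in OE, 1545 and 1522 CPM in KD, and 1354 and 1318 CPM in control. The 3 groups did not overlap, and Rpl39 was 1.28-fold higher in OE than in control (log2 0.36, SE 0.07, edgeR adjusted p = 0.000523), a call that held in every alternative. KD against control gave log2 0.20 (edgeR adjusted p = 0.0577) and was called in 4 of 16 alternatives. OE against KD gave log2 0.16 (edgeR adjusted p = 0.142) and was called in 2 of 16. Rpl41, the shortest ribosomal protein, had 589, 610 and 626 CPM in OE, 593 and 509 CPM in KD, and 475 and 481 CPM in control (log2 0.35 for OE against control, SE 0.09, edgeR adjusted p = 0.00846). OE and KD were above control in every library. The call of Rpl41 was lost without OE 3 (edgeR adjusted p = 0.0509).

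Rpl37a, Rpl4 and Rpl13a passed with smaller margins. Rpl37a, a zinc-binding protein, had 319, 340 and 315 CPM in OE, 333 and 323 CPM in KD, and 263 and 252 CPM in control (log2 0.34 for OE against control, SE 0.10, edgeR adjusted p = 0.0259; log2 0.35 for KD against control, SE 0.10, edgeR adjusted p = 0.0187), again above both controls in every other library. Rpl4, which reaches into the exit tunnel, had 990, 1095 and 1138 CPM in OE, 905 and 993 CPM in KD, and 923 and 852 CPM in control (log2 0.28 for OE against control, SE 0.08, edgeR adjusted p = 0.0247). Rpl13a, also a part of an interferon-induced complex that silences translation, had 1712, 1924 and 1865 CPM in OE, 1518 and 1673 CPM in KD, and 1591 and 1488 CPM in control (log2 0.25 for OE against control, SE 0.07, edgeR adjusted p = 0.0235). For these 3 genes the OE call was lost without control 2 (edgeR adjusted p = 0.13, 0.179 and 0.166 for Rpl37a, Rpl4 and Rpl13a), without OE 2 (0.108, 0.0789 and 0.113) and without OE 3 (0.0584, 0.156 and 0.103), although all OE libraries of Rpl4 and Rpl13a stood above both controls. For Rpl37a it was also lost without control 1 (0.053), and its KD call without control 2 (0.0853), KD 1 (0.112) or KD 2 (0.0707).

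**Figure D3:**
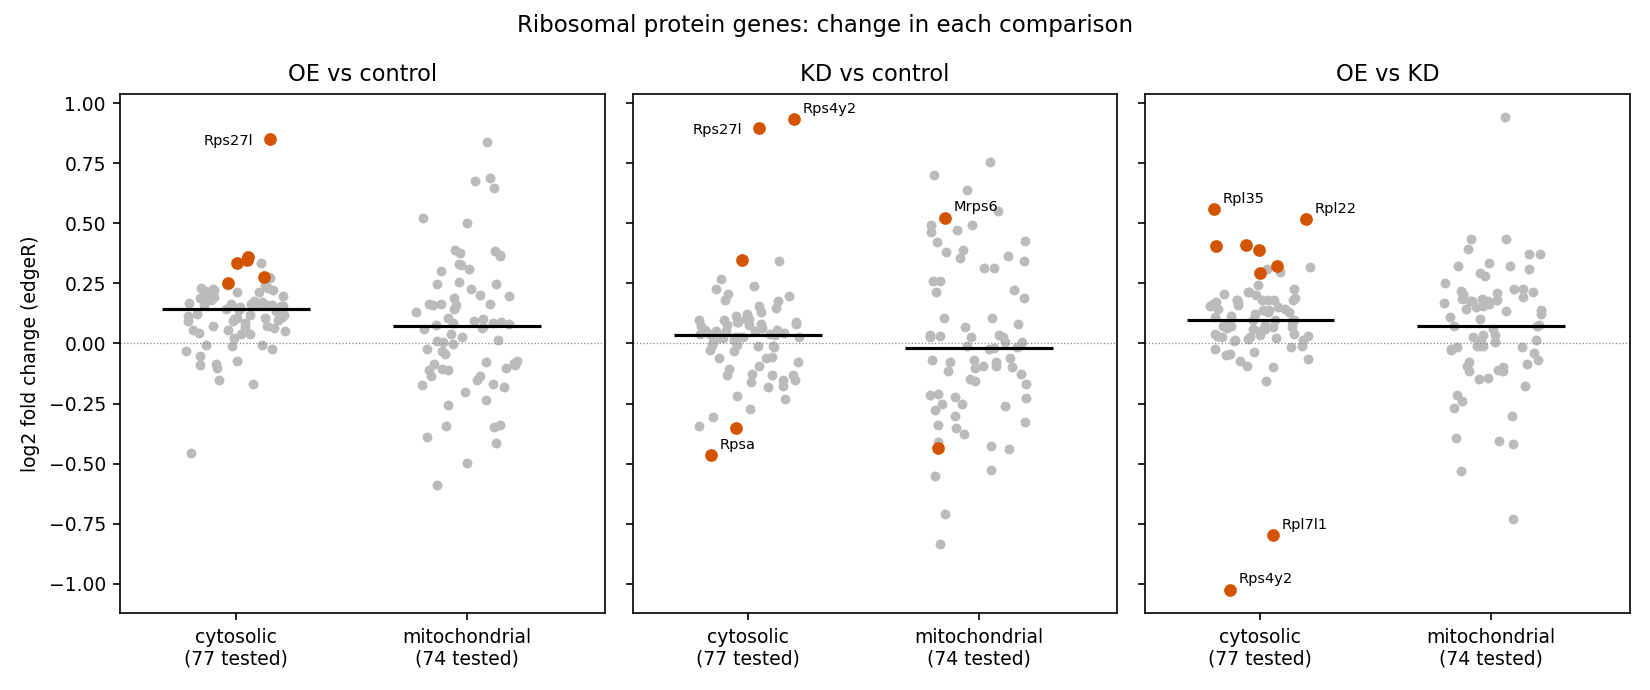
Log2 fold change of each tested member (points) in OE against control, KD against control and OE against KD, with the median of each set as a bar and members at an edgeR adjusted p under 0.05 in orange, those past 0.45 in either direction named. The cytosolic points stay within a narrow band around medians of 0.14, 0.03 and 0.10 apart from a few members, and the mitochondrial points spread wider with 2 orange points, both in KD against control.

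KD against control asked how the knockdown virus moved the same genes. The median log2 fold change was 0.03 for cytosolic and -0.02 for mitochondrial members, against 0.00 over all genes, with 48 of 77 and 35 of 74 positive and 50.1% over all genes. Of cytosolic members 3 rose and 2 fell at any fold, and 2 rose over 1.5-fold. Over all tested genes 7.80% rose and 7.23% fell at any fold, and 6.99% and 4.71% over 1.5-fold, so 5 of 77 (6.49%) is below the 15.0% of all genes, and 2 of 77 over 1.5-fold stands against 11.7%. At an unadjusted p under 0.05 there were 15. Both KD libraries lay above both controls for 17 cytosolic members and below both for 15, against 27.2% and 26.1% of all tested genes. Of mitochondrial members 1 rose and 1 fell, and 0 passed 1.5-fold, with 11 at an unadjusted p under 0.05, and KD lay wholly above control for 15 mitochondrial members and wholly below for 18.

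Rps4y2 rose in KD and not in OE. It had 41.2, 44.6 and 44.9 CPM in OE, 87.4 and 89.8 CPM in KD, and 47.3 and 45.4 CPM in control. The 2 KD libraries stood apart from the other 5. Rps4y2 was 1.91-fold higher in KD than in control (log2 0.93, SE 0.19, edgeR adjusted p = 0.000847) and 2.03-fold lower in OE than in KD (log2 -1.02, SE 0.17, edgeR adjusted p = 5.1e-05), while OE against control gave log2 -0.09 (SE 0.19, edgeR adjusted p = 0.853). Both calls held in every alternative.

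The gene listed as Rps4y2 is called Rps4l in RefSeq, which annotates it as a transcribed pseudogene, and it lies as a single exon on chromosome 6 (mm9, 148303178 to 148304120, plus strand). Its coding stretch is 80.1% identical to that of Rps4x, the X-linked gene for the small-subunit protein, over 789 bases. Per 100 counts of Rps4x it had 4.32, 4.36 and 4.27 counts in OE, 9.52 and 9.95 in KD, and 5.63 and 4.66 in control, so the ratio to its partner was also highest in KD. Rps4x itself had 954, 1024 and 1052 CPM in OE, 918 and 902 CPM in KD, and 840 and 972 CPM in control, with no call (log2 0.01 for KD against control, edgeR adjusted p = 0.969).

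Rpsa and Rpl31 fell in KD, and both calls depended on control 2 and KD 2. Rpsa, a small-subunit protein also described as a laminin receptor, averaged 209 ± 8.28 CPM in OE (SD, n = 3) and had 179 and 160 CPM in KD, and 195 and 276 CPM in control (log2 -0.47 for KD against control, SE 0.13, edgeR adjusted p = 0.0146). Control 2 was far above control 1, and without control 2 the difference shrank to log2 -0.20 (edgeR adjusted p = 0.425), while without KD 2 the adjusted p was 0.158. Rpl31, which sits at the end of the exit tunnel, had 294, 308 and 288 CPM in OE, 242 and 207 CPM in KD, and 267 and 307 CPM in control (log2 -0.35 for KD against control, SE 0.11, edgeR adjusted p = 0.030). This call was lost without control 2 (edgeR adjusted p = 0.235) and without KD 2 (0.306).

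Mrps6 and Mrps18b were the mitochondrial members past the test, both of the small subunit. Mrps6 had 135, 152 and 147 CPM in OE, 156 and 178 CPM in KD, and 119 and 113 CPM in control. OE and KD libraries were all above control, and KD above OE. Mrps6 was 1.44-fold higher in KD than in control (log2 0.52, SE 0.14, edgeR adjusted p = 0.00807), and OE against control gave log2 0.31 (SE 0.13, edgeR adjusted p = 0.163). The KD call was lost without KD 2 (edgeR adjusted p = 0.134), and Slc5a3, a gene on the same strand, overlaps exons of Mrps6, so reads of these 2 genes may not be told apart. Mrps18b, a homologue of bacterial S18, had 131, 132 and 128 CPM in OE, 114 and 116 CPM in KD, and 130 and 183 CPM in control (log2 -0.43 for KD against control, SE 0.15, edgeR adjusted p = 0.0456). The gap came mostly from control 2, without which it was log2 -0.17 (edgeR adjusted p = 0.593). The call was lost in 11 of 16 alternatives, among them leaving out KD 1 (0.179), KD 2 (0.146), OE 1 (0.0541), OE 2 (0.054) or OE 3 (0.0589).

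OE against KD set the 2 viruses against each other, and held the most calls of members. The control libraries do not enter the difference itself, but they share the fit, its scaling and its estimate of spread. Cytosolic members had a median log2 difference of 0.10, with 64 of 77 positive (83.1%), against -0.01 and 48.7% over all genes. Of them 7 were higher in OE and 2 lower at any fold, and 0 higher and 2 lower over 1.5-fold. Over all tested genes 4.67% were higher and 3.35% lower at any fold, and 2.93% and 2.37% over 1.5-fold, so 9 of 77 (11.7%) stands against 8.02% of all genes, and 2 of 77 over 1.5-fold against 5.30%. At an unadjusted p under 0.05 there were 24. All OE libraries lay above both KD libraries for 33 cytosolic members and below both for 4, against 18.4% and 19.4% of all tested genes. Mitochondrial members had a median of 0.07 with 46 of 74 positive. None of them passed by edgeR, 10 had an unadjusted p under 0.05, and the authors' deposited table called 2 higher. OE lay wholly above KD for 17 mitochondrial members and wholly below for 5.

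Rpl22 and Rpl35, both of the large subunit, were highest in OE and lowest in KD. Rpl22, which also binds RNA hairpins of Epstein-Barr virus, had 447, 489 and 436 CPM in OE, 311 and 327 CPM in KD, and 349 and 424 CPM in control. Rpl35, near the end of the exit tunnel, had 200, 211 and 219 CPM in OE, 146 and 140 CPM in KD, and 184 and 178 CPM in control. For both genes all OE libraries lay above all control libraries and all control libraries above both KD libraries. Rpl22 was 1.43-fold higher in OE than in KD (log2 0.52, SE 0.09, edgeR adjusted p = 0.000215) and Rpl35 1.47-fold higher (log2 0.56, SE 0.11, edgeR adjusted p = 0.00069), and both calls held in every alternative. Against control neither passed: the log2 fold change of Rpl22 was 0.25 for OE and -0.27 for KD (edgeR adjusted p = 0.122 and 0.071), and that of Rpl35 0.21 and -0.35 (edgeR adjusted p = 0.302 and 0.055). Exons of Wdr38 on the opposite strand overlap Rpl35, and the strand setting of the counting is not given in the sources used here.

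Of the small subunit, Rps27a and Rps2 were among the members higher in OE than in KD. Rps27a, made as a fusion with ubiquitin, had 2305, 2395 and 2236 CPM in OE, 1742 and 1955 CPM in KD, and 2075 and 2063 CPM in control (log2 0.32 for OE against KD, SE 0.07, edgeR adjusted p = 0.00114). All OE libraries lay above both controls and both controls above both KD libraries. The call of Rps27a was lost without KD 1 (edgeR adjusted p = 0.0951).

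Rps2, at the mRNA entry of the small subunit, had 693, 795 and 686 CPM in OE, 623 and 558 CPM in KD, and 660 and 634 CPM in control (log2 0.30 for OE against KD, SE 0.08, edgeR adjusted p = 0.0191), and its call was lost without KD 2 (edgeR adjusted p = 0.281) or OE 2 (0.137). Rpl31, described above for its fall in KD, was also higher in OE than in KD (log2 0.40, SE 0.10, edgeR adjusted p = 0.00782), a call lost without KD 2 (0.218).

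Rpl7l1, a paralog of the large-subunit protein Rpl7, ran the other way. It had 35.8, 38.3 and 40.3 CPM in OE, 68.8 and 64.1 CPM in KD, and 48.3 and 56.9 CPM in control, so that OE lay below control and control below KD in every library. Rpl7l1 was 1.74-fold lower in OE than in KD (log2 -0.80, SE 0.18, edgeR adjusted p = 0.00303), and without KD 1 the call was lost (edgeR adjusted p = 0.0703). Set against control, its log2 fold change was -0.46 for OE and 0.34 for KD, with no call (edgeR adjusted p = 0.18 and 0.292). Per 100 counts of Rpl7 it had 1.90, 1.93 and 2.25 counts in OE, 4.11 and 3.45 in KD, and 2.91 and 3.22 in control. Its coding sequence is 66.7% identical to that of Rpl7 over 661 aligned bases, and 84.9% of its windows were unique.

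**Figure D4:**
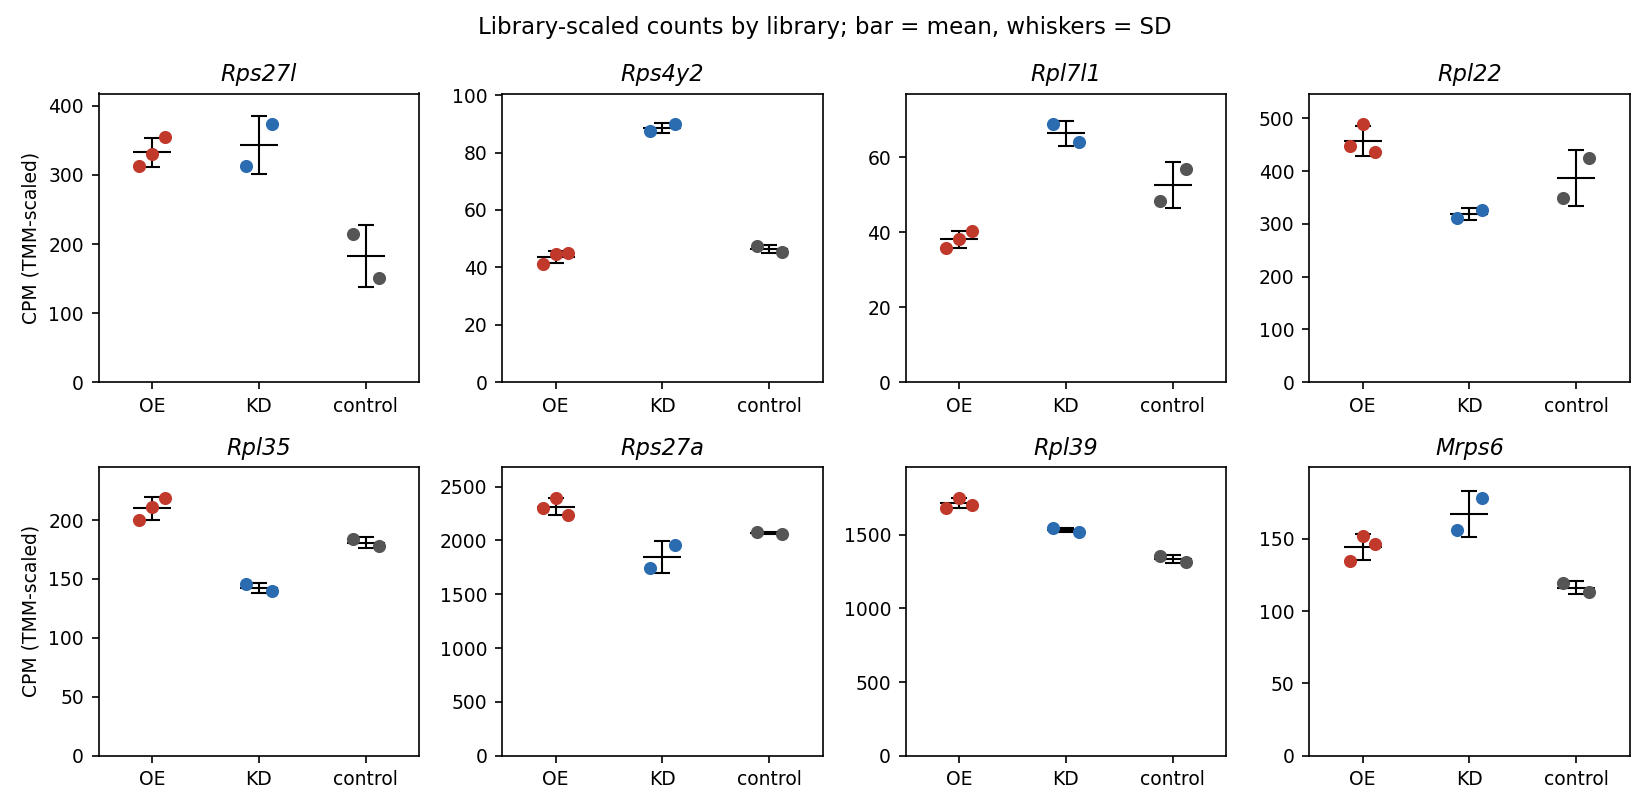
TMM-scaled CPM of 8 members past the test, with 1 point a library, in OE, KD and control, the mean as a bar and SD as whiskers (n = 3, 2 and 2), on axes from 0. Rps27l is higher in OE and KD than in control, Rps4y2 is highest in KD, Rpl7l1 steps upward over OE, control and KD, and Rpl22, Rpl35 and Rps27a step downward over the same order.

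The order of the 3 groups without overlap was counted for every tested gene. All OE libraries above all control libraries and these above all KD libraries was seen for 6 of 77 cytosolic members (7.79%), among them Rpl22, Rpl35, Rpl38, Rps2 and Rps27a, against 1.10% of all tested genes, and for 1 mitochondrial member, Mrpl43. Rpl38, whose loss causes the skeletal defects of the tail short mouse, had 418, 472 and 440 CPM in OE, 396 and 384 CPM in KD, and 402 and 412 CPM in control, with no call (log2 0.18 for OE against KD, edgeR adjusted p = 0.218). The reverse order was seen for 2 cytosolic members, Rpl7l1 and Rps4y2, against 0.832% of all tested genes. OE and KD both above control was seen for 12 cytosolic (15.6%) and 7 mitochondrial members (9.46%), against 13.0% of all genes, and both below control for 0 cytosolic and 6 mitochondrial members (8.11%), against 11.4%. The groups are of unequal size and depth, and these orders were given no test.

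**Figure D5:**
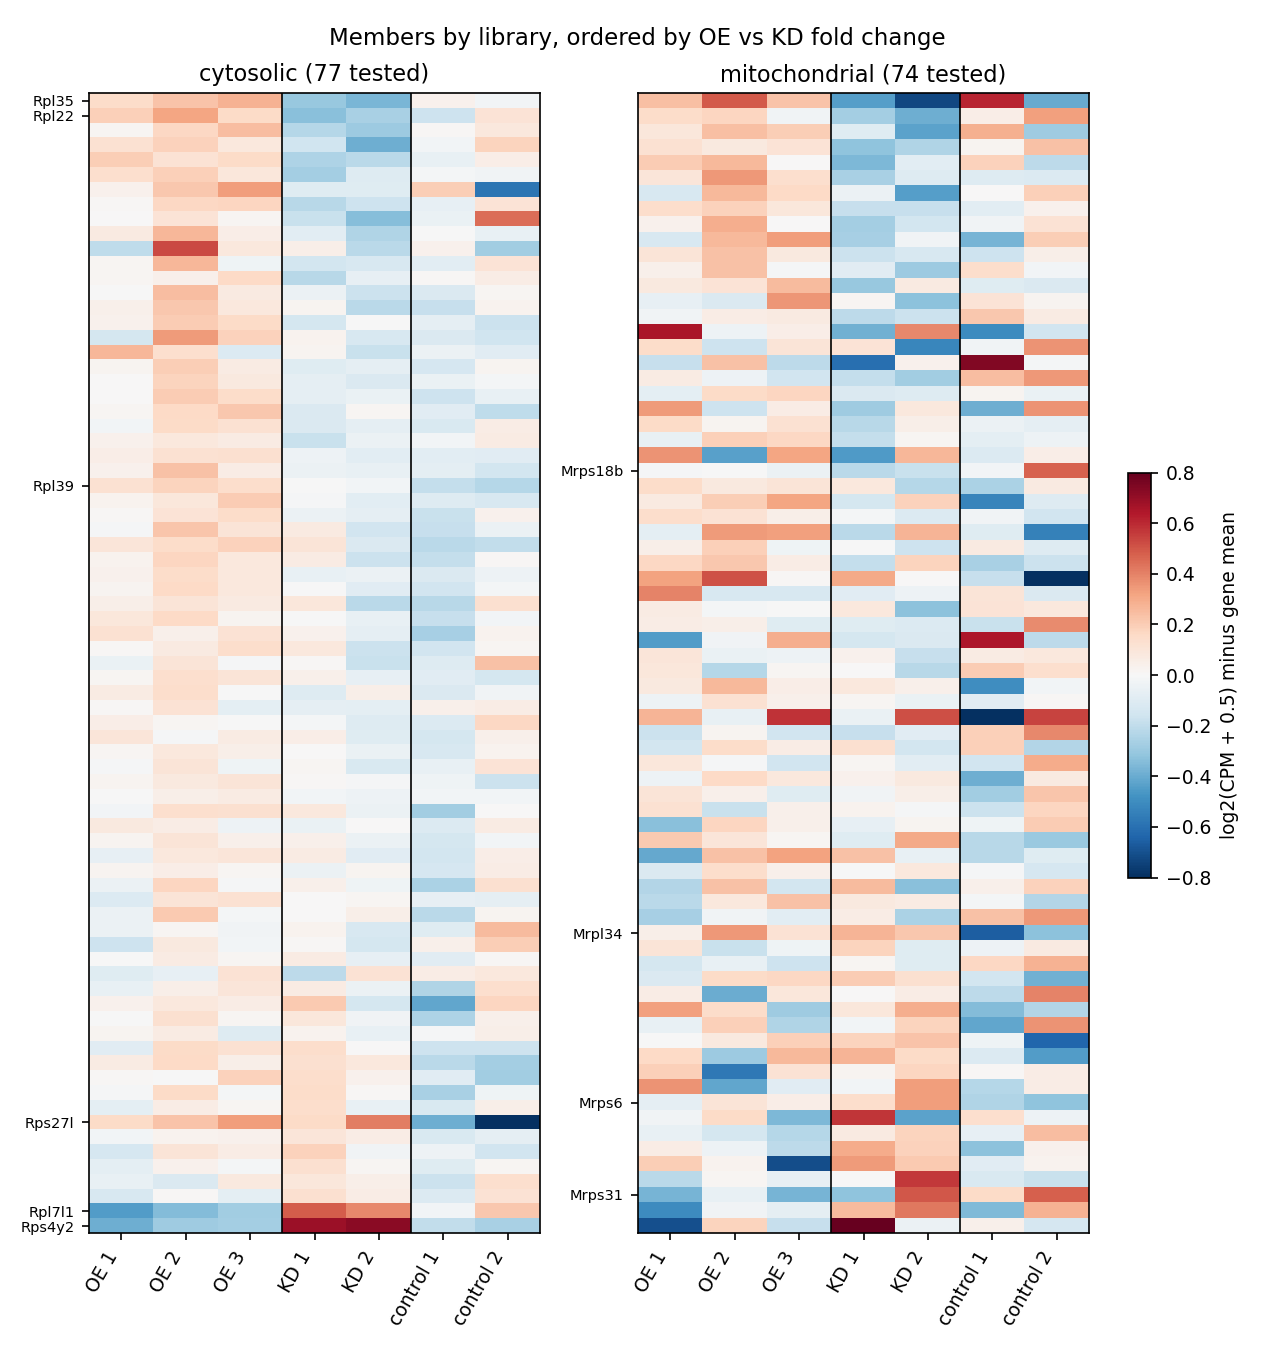
Tested members (rows) by library (columns, OE, KD and control from left), coloured by log2(CPM + 0.5) minus the gene's mean, red above and blue below, saturated at 0.8 in either direction. Only some rows are labelled. Rows are ordered by the OE against KD fold change, so the top rows are red in OE and blue in KD by construction, while cytosolic rows stay pale apart from a few, among them the labelled Rps27l, Rpl7l1 and Rps4y2, and the deeper colours of the mitochondrial rows often belong to 1 library.

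Of 21 tested cytosolic members with a listed special role, 2 were called in OE against control (9.52%), 2 in KD against control (9.52%) and 3 in OE against KD (14.3%) at any fold, against 6.80%, 15.0% and 8.02% of all tested genes. Of 11 such mitochondrial members 1 was called, in KD. The called ones are described above, and others follow. Rplp0, Rplp1 and Rplp2, the stalk proteins that recruit elongation factors, gave log2 0.08, 0.18 and 0.27 in OE against control, and 0.03, 0.04 and 0.03 in KD against control. Rpl5 and Rpl11, which with the smallest ribosomal RNA of the large subunit bind and restrain Mdm2, gave 0.10 and -0.05 in OE against control, and 0.03 and -0.15 in KD against control. Rps6, the substrate of the S6 kinases, gave 0.14 and 0.08, Rps19, the gene most often mutated in Diamond-Blackfan anaemia, gave 0.06 and -0.01, and Rps14, of the human 5q- syndrome, gave 0.23 and 0.24 in OE and KD against control. Rpl22l1, a paralog of Rpl22, gave -0.08 and -0.11, and had 40.3, 37.6 and 47.8 counts per 100 of Rpl22 in OE, 53.5 and 63.9 in KD, and 57.5 and 48.0 in control. None of the genes given a log2 value in this paragraph had an edgeR adjusted p under 0.05 in any comparison.

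Among mitochondrial members, the subunits differed in the sign of their median, which was not tested. In OE against control the median log2 fold change was 0.09 over 46 tested large-subunit members, 34 of them positive, and -0.09 over 28 small-subunit members, 11 of them positive. In OE against KD the medians were 0.14 and -0.01, and in KD against control -0.01 and -0.04. Cytosolic large and small subunits gave 0.14 and 0.15 in OE against control. The highest mitochondrial members with at least 50 counts in OE against control were Mrpl34 (log2 0.69, SE 0.28), Mrpl45 (0.52, SE 0.28) and Mrps34 (0.50, SE 0.29), and the lowest were Mrps31 (-0.59, SE 0.25), Mrps35 (-0.42, SE 0.17) and Mrps15 (-0.39, SE 0.19), none past the test. Mrpl34 had 23.4, 28.9 and 24.6 CPM in OE, 27.4 and 26.3 CPM in KD, and 14.1 and 17.9 CPM in control. Every OE and KD library was above both controls, but the counts behind them were few (edgeR adjusted p = 0.155 in OE and 0.0862 in KD against control).

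The remaining extremes were likewise below the threshold. In KD against control Mrps21 gave log2 0.49, Mrps2 -0.53 and Mrpl16 -0.44, and in OE against KD Mrps2 gave 0.44, Mrpl27 0.43, Mrpl30 0.39, Mrps23 -0.53, Mrps31 -0.42 and Mrps28 -0.40. Mrpl12, a stalk protein that also binds the mitochondrial RNA polymerase, gave 0.10, -0.10 and 0.20 in OE against control, KD against control and OE against KD. Mrps22 and Mrps16, mutated in human disorders of oxidative phosphorylation, gave 0.25 and 0.25 in OE against control, and -0.06 and 0.26 in KD against control. The paralogs Mrps18a and Mrps18c gave -0.11 and 0.09 in OE against control, and -0.10 and 0.11 in KD against control, where Mrps18b passed.

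Because miR-218 was the factor changed, the 3′ untranslated regions were searched for its target word. The mature strand, from RefSeq (GRCm38.p6), is shown with its seed, bases 2 to 8, in capitals.
mmu-miR-218-5p: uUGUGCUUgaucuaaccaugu
The 7-letter match AAGCACA stood in the longest annotated 3′ UTR of 6 of 75 cytosolic members (8.0%) and 9 of 74 mitochondrial members (12.2%), against 16.2% of all tested genes with a UTR. The 3′ UTRs were short, with medians of 118 bases (cytosolic) and 328 bases (mitochondrial) against 1304 bases over all genes. The 8-letter match AAGCACAA stood in 3 cytosolic and 3 mitochondrial members, 4.0% and 4.1% against 4.7% of all genes. The 6 sites are shown because they carry the longest match, in 30 bases of mm9 in the direction of the transcript, with the match in capitals.
Rpl7l1: gggtgggcaacAAGCACAAacctccctccc
Rpl24: aatcattcctaAAGCACAAgaagtgaatgt
Rps20: tttgctattcaAAGCACAAtctcaattaaa
Mrpl47: catttcaaggaAAGCACAAactcatttaat
Mrpl48: gtctttataccAAGCACAAggccaagtccc
Mrps7: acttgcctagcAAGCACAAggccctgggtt
They lie at chr17:46912400-46912407 (minus strand, Rpl7l1), chr16:56008634-56008641 (plus, Rpl24), chr4:3758757-3758764 (minus, Rps20), chr3:32625681-32625688 (minus, Mrpl47), chr7:107694850-107694857 (minus, Mrpl48) and chr11:115468991-115468998 (plus, Mrps7). In the longest annotated 3′ UTR the sites start at base 290 of 1841 (Rpl7l1), 1196 of 1588 (Rpl24), 2884 of 3167 (Rps20), 828 of 2197 (Mrpl47), 2965 of 3557 (Mrpl48) and 638 of 997 (Mrps7). Transcripts with a shorter 3′ UTR may lack the site. The match is a description of letters and does not show that the site is used.

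Genes with the word had values of both signs. In OE against control, Rpl7l1 gave log2 -0.46, Rpl24 0.14, Rps20 0.22, Mrpl47 0.09, Mrpl48 0.84 (SE 0.50) and Mrps7 -0.14, none past the test. Over the 15 members with the 7-letter word the median was 0.09, from -0.46 to 0.84, with 0.12 for the 6 cytosolic and -0.23 for the 9 mitochondrial members. Of the members past the test and with a UTR, Rpl7l1 and Mrps18b alone held the 7-letter word.

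The starts of the genes were set beside these values, since pyrimidine runs at the start are the known shared feature of ribosomal protein mRNAs. RefSeq promoter windows (GRCm38.p6) were found for 63 cytosolic and 67 mitochondrial members. A run of at least 8 C or T on the transcript strand, within 30 bases either side of the annotated start, stood in 35 cytosolic windows (55.6%) and 19 mitochondrial windows (28.4%), against 25.8% of 27025 genes. A C at the annotated start followed by 4 C or T stood in 20.6% of cytosolic windows and 0.0% of mitochondrial windows, against 3.0% of all genes. The word CCGGAAG on either strand, which ETS factors bind, stood in 41.3% and 35.8% of windows against 9.9% of all genes, in both sets alike. Windows of some called members are shown from 30 bases before the start, with the longest run in capitals, to set long runs beside short ones, and both starts are given where RefSeq has a pair.
Rpl35: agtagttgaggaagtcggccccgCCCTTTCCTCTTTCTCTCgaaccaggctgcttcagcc
Rpl22, first start: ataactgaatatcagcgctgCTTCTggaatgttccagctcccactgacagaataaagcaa
Rpl22, other start: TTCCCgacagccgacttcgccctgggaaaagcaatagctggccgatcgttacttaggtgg
Rpl41: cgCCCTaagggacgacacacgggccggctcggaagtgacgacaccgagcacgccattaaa
Rpl39: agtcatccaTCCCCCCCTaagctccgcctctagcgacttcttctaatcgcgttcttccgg
Rps27l, first start: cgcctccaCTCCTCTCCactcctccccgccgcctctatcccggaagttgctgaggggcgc
Rps27l, other start: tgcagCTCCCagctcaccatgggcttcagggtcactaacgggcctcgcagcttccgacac
Mrps6: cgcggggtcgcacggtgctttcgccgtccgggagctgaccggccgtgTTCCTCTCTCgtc
Rpl7l1: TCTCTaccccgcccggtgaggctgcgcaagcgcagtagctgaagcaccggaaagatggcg
These are chr2:39005102-39005161 (minus strand), chr4:152324406-152324465 (plus), chr4:152325696-152325755 (plus), chr10:128549139-128549198 (minus), chrX:37085193-37085252 (minus), chr9:66946056-66946115 (plus), chr9:66946383-66946442 (plus), chr16:92058306-92058365 (plus) and chr17:46782627-46782686 (minus). The longest runs were 18 bases in Rpl35, 5 at both starts of Rpl22, 4 in Rpl41, 9 in Rpl39, 9 and 5 at the starts of Rps27l, 10 in Mrps6 and 5 in Rpl7l1. Of the runs in capitals, only that of Rpl35 spans the annotated start. That of Mrps6 lies after it, and the others lie before it, outside an mRNA that begins at the start shown. Shorter runs are not marked, and Rpl39 also has a run of 8 after its start, within the annotated mRNA. Rpl35 and Rpl22, both highest in OE and lowest in KD, thus had a long and a short run, and Rpl7l1, with the opposite order of groups, had a run as short as those of Rpl22. The relation of run length to change was not tested.

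Ribosomal components whose symbols fall outside the rule did not pass the test in any comparison by edgeR. Of 4 tested cytosolic ones, 1 had an unadjusted p under 0.05 in OE and 0 in KD against control. Among them Fau, made as a fusion with a ubiquitin-like protein, Gnb2l1, the scaffold Rack1, and Rpl36al gave log2 0.05, 0.15 and 0.22 in OE against control, and 0.02, 0.11 and 0.09 in KD against control. The mitochondrial subunits Dap3, Ptcd3, Mrp63, Ict1, Gadd45gip1, Aurkaip1, Chchd1 and Oxa1l, an insertase that binds the mitochondrial ribosome, ranged from -0.22 (Dap3) to 0.23 (Mrp63) in OE against control and from -0.26 (Chchd1) to 0.17 (Gadd45gip1) in KD against control (0 and 1 of the 8 at an unadjusted p under 0.05).

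Among factors that build ribosomes, 1 of 38 tested was called at any fold in OE against control (2.63%), 0 in KD against control and 3 in OE against KD (7.89%), against 6.80%, 15.0% and 8.02% of all genes, with 4 at an unadjusted p under 0.05 in KD. Of the 38, 1 passed 1.5-fold in OE against control and 2 in OE against KD, and the median log2 fold changes were 0.10 in OE against control, -0.02 in KD against control and 0.11 in OE against KD. Ltv1, which helps export and mature the small subunit, had 57.6, 60.3 and 54.5 CPM in OE, 30.5 and 26.3 CPM in KD, and 36.1 and 30.7 CPM in control (log2 0.78 for OE against control, edgeR adjusted p = 0.0203; log2 1.02 for OE against KD, edgeR adjusted p = 0.000809). Every OE library was above the other 4. Ddx21, a nucleolar helicase, had 74.6, 55.4 and 54.8 CPM in OE, 28.3 and 31.6 CPM in KD, and 34.6 and 53.7 CPM in control (log2 1.04 for OE against KD, edgeR adjusted p = 0.00109), and Ncl, nucleolin, was higher in OE than in KD by log2 0.39 (edgeR adjusted p = 0.00093).

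Of 14 tested translation factors and regulators with pyrimidine-run mRNAs, 1 was called in each comparison (7.14%), near or below the shares of all genes just given. Eef1b2, an exchange factor of elongation, rose in OE (log2 0.27, edgeR adjusted p = 0.0352), Npm1, nucleophosmin, fell in KD (log2 -0.25, edgeR adjusted p = 0.031), and Pabpc1, the poly(A)-binding protein, was higher in OE than in KD (log2 0.36, edgeR adjusted p = 0.00202). Among 16 genes of the mTOR pathway, Larp1 and Myc, 6.25% were called in OE against control, 12.5% in KD against control and 6.25% in OE against KD. The calls went to Eif4ebp1, an inhibitor of cap-dependent initiation (log2 1.23 for OE and 1.32 for KD against control, edgeR adjusted p = 0.043 and 0.0215), and to Myc, an activator of ribosome genes. Myc had 20.6, 19.5 and 19.1 CPM in OE, 4.98 and 7.02 CPM in KD, and 19.01 and 9.58 CPM in control (log2 -1.27 for KD against control, edgeR adjusted p = 0.0296; log2 1.71 for OE against KD, edgeR adjusted p = 0.00123), with KD below every other library. None of 7 tested S6 kinase genes passed by edgeR, with medians of -0.25 in OE and -0.14 in KD against control (0 and 1 at an unadjusted p under 0.05).

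Of 32 tested genes of mitochondrial translation 3.12% were called in OE and 6.25% in KD against control, below the 6.80% and 15.0% of all genes. Nars2, the mitochondrial asparagine tRNA synthetase, fell in both groups. Nars2 had 46.7, 26.1 and 34.2 CPM in OE, 24.3 and 24.9 CPM in KD, and 88.2 and 80.5 CPM in control (log2 -1.24 for OE and -1.78 for KD, edgeR adjusted p = 0.000194 and 2.19e-06), without overlap with control. Gfm2, a ribosome recycling factor, fell in KD (log2 -0.70, edgeR adjusted p = 0.0383). Of 13 tested genes of mitochondrial DNA expression 1 passed, in KD against control (7.69%, against 15.0% of all genes). It was Ppargc1b, a coactivator of mitochondrial genes (log2 1.51 for KD against control, edgeR adjusted p = 0.0252).

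Targets of p53 rose beside Rps27l. Over all tested genes 4.19% rose in OE and 7.80% in KD at any fold. Of 13 tested genes of the p53 list 7 rose in OE and 7 in KD (53.8% each), and 0 fell in either. Their summed CPM was 1385 to 1541 in OE, 1468 and 1562 in KD, and 999 and 841 in control, with control 2 the lowest here as for Rps27l. Examples are Mdm2, the ligase that Rpl5 and Rpl11 restrain (log2 0.76 for OE and 0.93 for KD, edgeR adjusted p = 0.00381 and 0.000295), Eda2r, a death receptor relative (1.85 and 2.07), and Pmaip1, a pro-apoptotic protein (1.08 and 0.91). The part of these genes in the rise of Rps27l was not tested.

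Markers of division and of other cells moved with the groups as well. Over all tested genes 4.19% rose in OE and 7.80% in KD against control at any fold, and 2.60% and 7.23% fell. Over 1.5-fold, 3.65% and 6.99% rose, and 1.26% and 4.71% fell. Of 20 genes of cell division 14 rose in OE and 19 in KD against control, with summed CPM of 834 to 978 in OE, 1227 and 1387 in KD, and 519 and 460 in control. Markers of astrocytes and radial glia rose in 6 of 13 cases and fell in 1 in OE over 1.5-fold, and rose in 7 and fell in 1 in KD, with sums of 4398 to 4599 CPM in OE, 3995 and 4688 CPM in KD, and 3134 and 2791 CPM in control. Of 7 tested fibroblast markers 3 rose in OE and 2 in KD, with sums of 409 to 562, 738 to 741, and 264 to 283 CPM in OE, KD and control. Of 10 neuronal markers 1 fell in OE and 4 fell in KD at any fold, with sums of 5574 to 6019 CPM in OE, 5102 and 5110 CPM in KD, and 6261 and 6163 CPM in control. Of 6 tested motor neuron markers 1 rose in OE and 1 in KD, in both cases Ret, the signalling receptor of GDNF (log2 1.13 and 1.09, edgeR adjusted p = 0.035 and 0.0353), and 1 was lower in OE than in KD, Foxp1, a regulator of motor neuron columns (log2 -0.52, edgeR adjusted p = 0.0341). Both are named after their values were seen. These markers summed to 95.5 to 121 CPM in OE, 141 and 121 CPM in KD, and 101 and 95.8 CPM in control, and oligodendrocyte, microglia and endothelial lists held 0 calls against control by edgeR (1, 0 and 0 in OE and 2, 0 and 0 in KD at an unadjusted p under 0.05). The part of these cell populations in the changes of ribosomal protein genes was not tested.

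In the authors' deposited table, made with DESeq2, the cytosolic members at an adjusted p under 0.05 were 9 higher and 0 lower in OE against control, 4 higher and 1 lower in KD against control, and 11 higher and 2 lower in OE against KD. Of these, 6, 4 and 9 were also called here. That is 10.8%, 6.02% and 15.7% of the 83 cytosolic members with an adjusted p in the authors' deposited table, against 4.44%, 9.20% and 5.47% of its 18304 genes with one, which include genes of low counts. By direction, that table called 2.69% of genes higher and 1.74% lower in OE against control, 4.68% higher and 4.52% lower in KD against control, and 3.28% higher and 2.19% lower in OE against KD.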

How the data were processed

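RNA of 7 libraries (3 OE, 2 KD, 2 control) was analysed from a deposited table of counts per gene. Per the labels' protocols, the authors sequenced single reads of 50 bases, mapped them with TopHat2 2.0.10 to mm9 and counted uniquely mapped reads with HTSeq-count 0.6.1p1. No source used here gives the annotation or the strand setting. The table also holds the authors' log2 fold changes, p-values and adjusted p-values from DESeq2 1.4.5 (version per the labels' protocols, columns per the file headers), which were used only to count calls.

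Counts were fitted with edgeR 4.0.16 under R 4.3.3 (TMM scaling, filterByExpr by group, robust quasi-likelihood F test, 1 fit of the 7 libraries, 4 residual and 28 prior degrees of freedom), two-sided, with Benjamini-Hochberg adjustment over 12134 tested genes. Calls needed an adjusted p under 0.05, at any fold or over 1.5-fold. The fit was tested on simulated counts. A standard error is the log2 fold change divided by the root of its F statistic. Log2 CPM used a prior count of 2. Replicate pairs differed by 2.91 to 3.44 times the counting variance, so none was a copy. Replicate numbers were taken from the titles. Gene positions and UTRs come from GENCODE vM1 (mm9), in which 82 cytosolic and 76 mitochondrial members were found. The exons of 26 and 26 members overlap another gene. Among called members these include Mrps6, Rpl13a and Rps2, which overlap a gene on the same strand. Rpl31, Rpl35, Rps2, Rps27a and Mrps18b overlap a gene on the opposite strand.

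Named genes were members past the test, members with a listed role, the 3 highest and 3 lowest fold changes per set and comparison among members with at least 50 mean counts, and called genes of the pathway lists, of which marker lists are given as counts. A few genes that this rule takes are counted but not reported here by name. The rule for members uses symbols alone, but members, roles and lists were chosen with earlier results of these data known. Alternatives were other scalings, filters, tools (DESeq2 1.42.0, limma-voom 3.58.1) and fits, a replicate block, and leaving out each library.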

Additional observations from a re-analysis of the deposited data

How the results depend on the processing

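Of 22 calls of members, 8 held in all 16 alternatives (among them Rps27l and Rpl39 in OE, Rps27l and Rps4y2 in KD, and Rpl22, Rpl35 and Rps4y2 in OE against KD), 14 were lost in at least 1, and 0 changed sign. Of 106 values of named members not past the test, a part of all values of members, 8 gained a call in at least 1. The alternatives to counts at any fold were chosen after seeing the data. Depth limits precision most in the shallow controls and in mitochondrial members, whose median standard error was 0.213 on the log2 scale in OE against control. For the moved values that follow, the cause was not tested.

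Without a fold threshold, cytosolic calls were 6 higher in OE against control, 2 lower in KD against control and 7 higher in OE against KD, and mitochondrial calls 1 higher and 1 lower in KD against control. With library totals in place of TMM, which shifted the median of all genes by 0.08 in KD against control and -0.07 in OE against KD, the medians were 0.113 (cytosolic, KD against control), 0.06 (mitochondrial, KD against control) and 0.01 (mitochondrial, OE against KD). At any fold, cytosolic calls in KD against control were then 8 higher and 1 lower, and mitochondrial calls 0 lower, with 1 higher over 1.5-fold. The calls of Rpl31, Mrps18b and Rps2 were among those lost. With a CPM of at least 10 in 2 libraries, 5 cytosolic members rose in KD. Mitochondrial members higher at any fold numbered 1 in OE against control and 1 in OE against KD under that filter and with no low-count filter, 1 in OE against KD with TMM computed without the members and with limma-voom, and 2 with only the 2 groups compared. Limma-voom called 11 cytosolic members higher in OE than in KD. The mitochondrial count lower in KD was 0 with DESeq2, limma-voom and only the 2 groups.

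Correlations of deviations between same-numbered libraries were -0.054 to 0.026 over all genes and -0.281 to 0.137 over members. In a group of 2 libraries the deviations of a gene are equal and opposite, so these values say little about pairing. The replicate block is 1 of the 16 alternatives, and its counts are given only here. With it, cytosolic members higher at any fold in OE against control were 2, Rps27l and Rpl39, and mitochondrial members lower in KD 0. Of the calls named in the report, the block lost those of Rpl13a, Rpl37a, Rpl4 and Rpl41 in OE and Mrps18b in KD, with no other of them lost.

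Leaving out each library in turn, cytosolic members higher at any fold numbered 2 (without OE 3) to 8 in OE against control, with 3 without OE 2, and 4 (without KD 2) to 10 in OE against KD, and those lower 0 (without control 2 or KD 2) to 3 in KD against control and 1 (without KD 1) to 2 in OE against KD. Over 1.5-fold they numbered 0 to 1 lower in KD against control, 0 to 1 higher and 1 to 2 lower in OE against KD. Mitochondrial members ranged from 0 to 1 higher and 0 to 1 lower in OE against control at any fold, 0 to 2 higher and 0 to 1 lower in KD against control, and 0 to 2 higher in OE against KD. Over 1.5-fold they ranged from 0 to 1 higher in OE against control, and 0 to 1 higher and 0 to 1 lower in KD against control. The cytosolic median ran from 0.077 (without control 1) to 0.193 in OE against control and from -0.049 (without control 1) to 0.085 in KD against control, and the mitochondrial median from 0.037 (without control 1) to 0.133 (without control 2) in OE against control and from -0.043 to 0.052 (without control 2) in KD against control.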
